A study of Homo sapiens with 11 samples.

Results

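The mRNAs described here encode 10 proteins of the clathrin coat and of the machinery that builds and cuts clathrin-coated vesicles at the plasma membrane. They are EPN1 and EPN2 (epsins), CLTC, CLTA and CLTB (clathrin chains), AP2A1, AP2M1 and AP2S1 (subunits of the adaptor complex AP2), DNM2 (dynamin 2) and EPS15, and they are 10 of the 31325 genes measured. EPN1 was chosen because it was among the genes with the largest falls after miR-365a-3p in both cell lines, so its values are a description with no test. The other 9 were chosen for their function, but with earlier results of these data known. Expression was measured on 11 arrays of the Illumina HumanHT-12 v4 BeadChip type. The 2 established cancer cell lines were MDA-MB-231 from a breast tumor and SKOV3 from an ovarian tumor, the latter named SKOV3.ip1 in the methods. Cells of each line were transfected with miR-365a-3p or with a control miRNA. There were 3 arrays for each treatment of MDA-MB-231, 3 for miR-365a-3p in SKOV3 and 2 for the control in SKOV3. The labels give 48 hours of miR-365a-3p and the same figure without a unit for the controls, whereas the design text of the series gives 24 hours. Each condition was studied in 1 line of each tumor type, and the sources used here do not state the dose for these arrays or whether replicates were separate cultures, so p-values measure the spread between arrays, which may be technical.

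In clathrin-mediated endocytosis, AP2 binds cargo receptors and the membrane lipid phosphatidylinositol 4,5-bisphosphate and recruits clathrin, whose triskelia of heavy and light chains assemble into a cage around the forming pit. Epsins and EPS15 are early accessory proteins that bind AP2, clathrin and ubiquitylated cargo, and epsins also help to bend the membrane. Dynamin constricts and cuts the neck of the pit, and lipid phosphatases then help to release the coat. The route carries transferrin and many growth factor receptors into the cell.

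A miRNA directs silencing complexes to mRNAs mainly through pairing of its seed, bases 2 to 8. The mature sequences of the transfected miRNA and of its twin from a second locus are shown because every treated array received this sequence, with the seed in capitals (RefSeq, GRCh38.p14, both on the plus strand of the genome).
hsa-miR-365a-3p (chr16:14309340-14309361): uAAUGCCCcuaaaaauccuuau
hsa-miR-365b-3p (chr17:31575478-31575499): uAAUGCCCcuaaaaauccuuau
The sequences are identical, and of 2370 mature names in the RefSeq table only these 2 carry the seed AAUGCCC. A perfect match to it in an mRNA would read GGGCAUU. Transcript sequences of the clathrin genes were not searched here, so nothing is said of whether any of them holds such a match.

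All levels are on the scale of the deposited values, read here as log2, after quantile normalization, which gives each array the same distribution. "Fell" and "rose" are used only where limma's p was under 0.05 after Benjamini-Hochberg adjustment across the whole set of 31325 genes. The array has a floor, and the lowest 60% of genes on an array lie between 7.17 and 7.43, so differences near that band are compressed. Before this normalization the arrays differed with the treatment. The 75th percentile of the deposited values was 7.56 to 7.65 on the miR-365a-3p arrays of MDA-MB-231 against 7.86 to 7.93 on its control arrays, and 7.67 to 7.80 against 7.98 to 8.04 in SKOV3. The median of 260 genes of small-protein families minus that of 70 genes of large-protein families was 2.94 to 3.23 against 1.98 to 2.39 in MDA-MB-231 and 2.66 to 3.03 against 1.95 to 1.99 in SKOV3. The part of either shift in the results was not tested, and for the members values on the deposited scale are given where they change a call. Among marker genes, ERBB2, KRT19 and PAX8 were higher in SKOV3 controls, KRT18 did not differ beyond the threshold, and none of the 4 genes taken as MDA-MB-231 markers (VIM, TGFBI, CD44 and SPARC) passed the test as higher in that line, with TGFBI and SPARC higher in SKOV3. The leukocyte and endothelial markers PTPRC, CD3E and PECAM1 did not exceed the 65th percentile of any array (highest 64.8).

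EPN1, an epsin that links ubiquitylated cargo to the coat, was much lower with miR-365a-3p in both lines. In MDA-MB-231 it read 10.97, 10.36 and 11.14 on the control arrays and 7.50, 7.72 and 7.77 on the miR-365a-3p arrays. The SKOV3 arrays read 11.11 and 11.09 on the control arrays and 7.65, 8.64 and 8.12 on the miR-365a-3p arrays. Every treated array was below every control array in both lines, and the second miR-365a-3p array of SKOV3 was the highest of the treated arrays. The differences were -3.16 in MDA-MB-231 and -2.97 in SKOV3, which are ratios of 8.94 and 7.81 if the scale is plain log2. On the control arrays EPN1 stood between the 95.3rd and 97.2nd percentiles of all genes, and with miR-365a-3p it stood between the 65.1st and 74.3rd in MDA-MB-231 and between the 71.1st and 86.2nd in SKOV3. The order of the group means was SKOV3 control (11.10 ± 0.019, SD, n = 2), MDA-MB-231 control (10.82 ± 0.41, n = 3), SKOV3 with miR-365a-3p (8.14 ± 0.50, n = 3) and MDA-MB-231 with miR-365a-3p (7.66 ± 0.14, n = 3), and the arrays overlapped within the first pair and within the last pair. The control lines, a contrast that played no part in choosing EPN1, differed by -0.28 (MDA-MB-231 minus SKOV3, SE 0.29, 95% interval -0.94 to 0.39, adjusted p = 0.71). In such bulk samples, fewer cells that hold an mRNA and less of it per cell cannot be told apart. With the values as deposited, the treatment differences were -3.25 and -2.99.

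**Figure D1:**
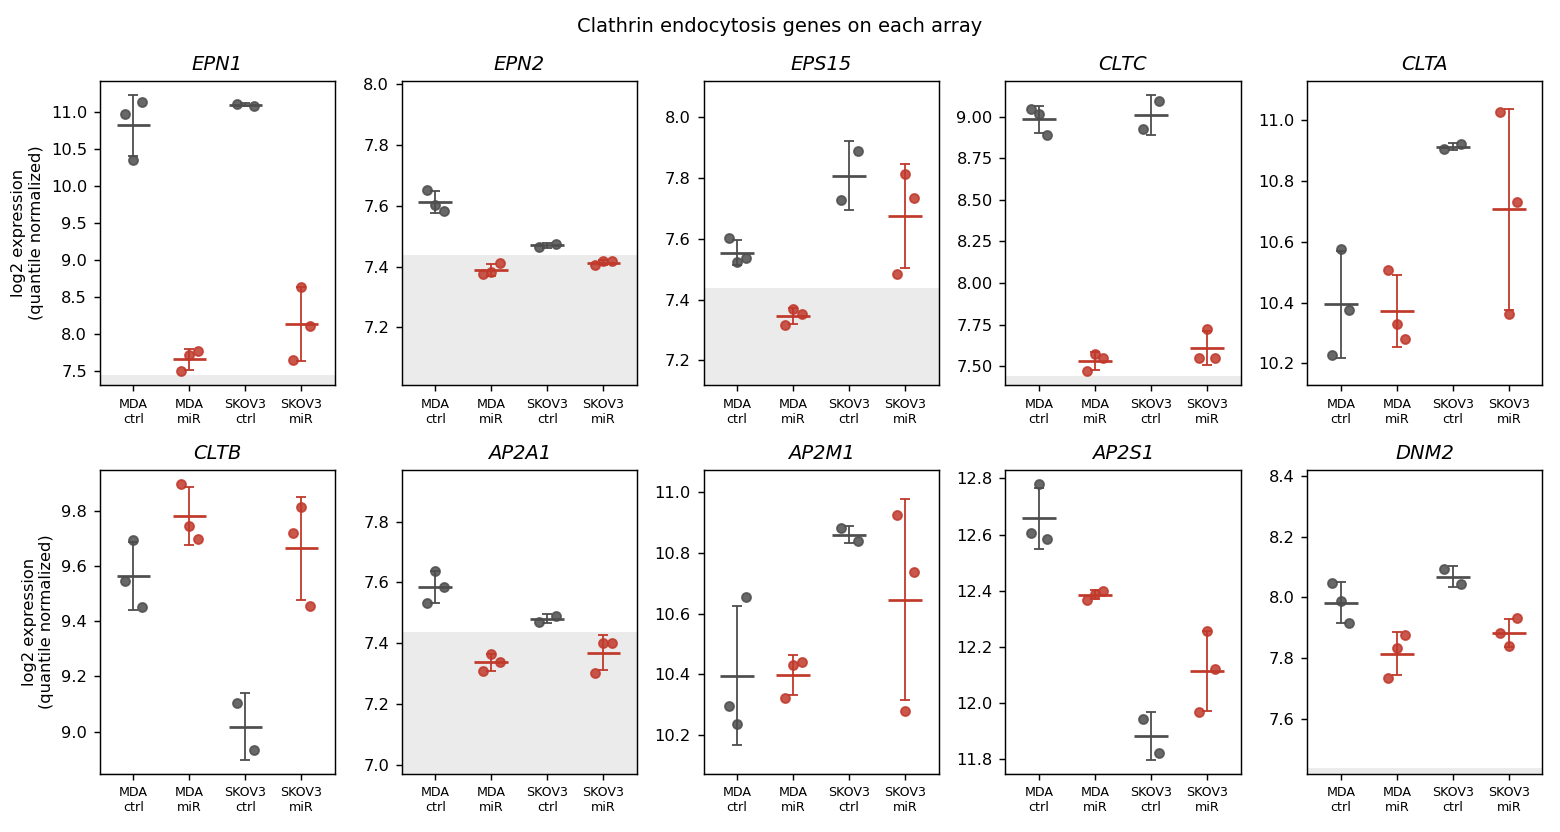
Quantile normalized log2 level of the 10 clathrin genes on each of the 11 arrays, 1 panel per gene with its own y axis, for control (ctrl) and miR-365a-3p (miR) arrays of MDA-MB-231 (MDA) and SKOV3. Points are arrays, bars are group mean and SD, and grey shading marks the band of the lowest 60% of genes (up to 7.43). The treated arrays of EPN1 and CLTC lie well below their controls in both lines, while those of CLTA and AP2M1 overlap their controls.

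Of the 9 members tested, 5 fell in MDA-MB-231 (CLTC, EPN2, AP2A1, AP2S1 and DNM2) and none rose, where 11.7% of all genes fell and 14.4% rose. In SKOV3, 2 fell (CLTC and DNM2) and CLTB rose, where 7.11% of all genes fell and 7.25% rose. The 2 that fell in both lines were CLTC and DNM2, and 5.39% of all genes did so, while no member rose in both lines and 5.76% of all genes did. The median difference of the 9 was -0.21 in MDA-MB-231 and -0.13 in SKOV3, and over all genes it was 0.0064 and 0.0066. Since 60% of genes on an array lie in the floor band, the median over all genes does not measure how brighter genes moved. With so few members these counts describe the list and say nothing particular to it. They also depended on the scale. With the values as deposited, 5 of the 9 fell in MDA-MB-231 (background 17.9% fell and 7.26% rose), 5 fell and 2 rose in SKOV3 (background 14.0% fell and 3.83% rose), and 5 fell and none rose in both (background 10.1% and 2.95%). On that scale EPS15 was among the 5 in MDA-MB-231 and AP2S1 was not.

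The clathrin heavy chain CLTC, which forms the legs of the triskelion, showed the clearest change of the tested members. In MDA-MB-231 it read 9.04, 9.02 and 8.89 on the control arrays and 7.47, 7.58 and 7.55 with miR-365a-3p. In SKOV3, CLTC read 8.93 and 9.10 on the control arrays and 7.55, 7.73 and 7.55 with miR-365a-3p. The arrays did not overlap in either line, and the treated arrays sat just above the floor band. CLTC fell in both lines, with a difference of -1.45 in MDA-MB-231 (SE 0.067, 95% interval -1.60 to -1.30, adjusted p = 4.31e-06 by limma) and of -1.40 in SKOV3 (SE 0.074, interval -1.57 to -1.23, adjusted p = 1.6e-05). These are ratios of 2.74 and 2.64 if the scale is plain log2. The response did not differ between the lines beyond its error (difference -0.05, interval -0.28 to 0.18, adjusted p = 0.913), nor did the control levels (-0.03, adjusted p = 0.92). Over the 4 ways of scaling the arrays the change was between -1.64 and -1.30 in MDA-MB-231 and between -1.62 and -1.37 in SKOV3, and CLTC passed the threshold with each array left out.

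The 2 light chains, which sit on the heavy chain and bind actin-linked partners, did not follow the heavy chain. CLTA read 10.23, 10.58 and 10.38 on the control arrays of MDA-MB-231 and 10.51, 10.33 and 10.28 with miR-365a-3p. In SKOV3 CLTA read 10.90 and 10.92 on the control arrays and 11.03, 10.36 and 10.73 with miR-365a-3p. The groups overlapped in both lines, with differences of -0.02 (interval -0.38 to 0.33, adjusted p = 0.955) and -0.21 (interval -0.60 to 0.19, adjusted p = 0.603), intervals that leave out a fall as large as that of CLTC. CLTB read 9.55, 9.69 and 9.45 on the control arrays of MDA-MB-231 and 9.90, 9.74 and 9.70 with miR-365a-3p. In SKOV3 CLTB read 9.10 and 8.93 on the control arrays and 9.72, 9.81 and 9.46 with miR-365a-3p. All treated arrays were above all controls in both lines on this scale, although in MDA-MB-231 they overlapped on the deposited values. CLTB rose by 0.64 in SKOV3 (SE 0.12, adjusted p = 0.0066), and in MDA-MB-231 the difference was 0.22 (adjusted p = 0.186), or 0.03 on the deposited values. The rise in SKOV3 did not pass without the second SKOV3 control array (0.56, adjusted p = 0.0773) or with SKOV3 fitted alone (adjusted p = 0.0543), and the response did not pass as different between lines (-0.43, adjusted p = 0.269).

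AP2 is a complex of 2 large subunits (alpha, from AP2A1 or AP2A2, and beta, from AP2B1), the medium subunit AP2M1, which reads tyrosine-based sorting signals and binds membrane lipid, and the small subunit AP2S1. AP2A1 was dim. In MDA-MB-231 it read 7.53, 7.64 and 7.58 on the control arrays and 7.31, 7.36 and 7.34 with miR-365a-3p. In SKOV3, AP2A1 read 7.47 and 7.49 on the control arrays and 7.30, 7.40 and 7.40 with miR-365a-3p. The treated arrays were below the controls in both lines and within the floor band, so the size of the change is poorly measured. AP2A1 fell by 0.25 in MDA-MB-231 (SE 0.036, adjusted p = 0.00109), and the difference in SKOV3 was -0.11 (adjusted p = 0.108), which passed as -0.21 (adjusted p = 0.0161) on the deposited values.

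AP2M1 was bright and its groups overlapped. It read 10.30, 10.24 and 10.66 on the control arrays of MDA-MB-231 and 10.32, 10.43 and 10.44 with miR-365a-3p. In SKOV3 it read 10.88 and 10.84 on the control arrays and 10.92, 10.28 and 10.74 with miR-365a-3p. The differences were 0.0016 (interval -0.37 to 0.37, adjusted p = 0.997) and -0.21 (interval -0.62 to 0.20, adjusted p = 0.6). In SKOV3 the second miR-365a-3p array was the lowest for AP2M1 and for CLTA, and it was the highest of that group for EPN1.

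AP2S1 was bright, at the 98.4th percentile or higher on every array. In MDA-MB-231 it read 12.61, 12.78 and 12.58 on the control arrays and 12.37, 12.39 and 12.40 with miR-365a-3p. In SKOV3, AP2S1 read 11.94 and 11.82 on the control arrays and 11.97, 12.26 and 12.12 with miR-365a-3p. Treated arrays were thus below the controls in one line and above them in the other. The difference in MDA-MB-231 was -0.27 (SE 0.076, adjusted p = 0.0288), but its direction flipped with the scaling, to 0.01 on the deposited values (adjusted p = 0.951) and 0.04 with arrays centred on their median (adjusted p = 0.669), and it was -0.37 with cyclic loess (adjusted p = 0.0009). In MDA-MB-231 the call was also lost without the second control array (-0.21, adjusted p = 0.0926) or without any 1 of its 3 miR-365a-3p arrays (adjusted p = 0.0834, 0.0732 and 0.063). In SKOV3 the difference was 0.23 (adjusted p = 0.122), and it passed as 0.34 on the deposited values (adjusted p = 0.008), as 0.38 with centred arrays (adjusted p = 0.00632) and as 0.30 without the first miR-365a-3p array of SKOV3 (adjusted p = 0.0363). For AP2S1, then, no direction in MDA-MB-231 holds over the scalings run.

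**Figure D2:**
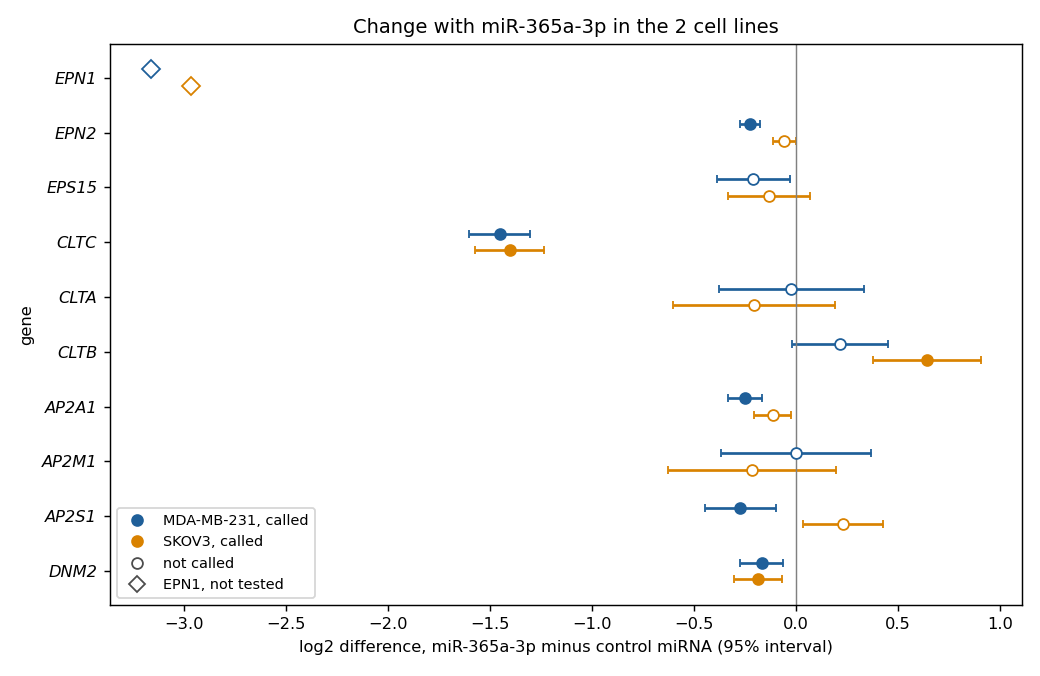
Difference between miR-365a-3p and control (log2, x axis) for each of the 10 clathrin genes in MDA-MB-231 and SKOV3. Points are differences of group means, filled where the adjusted p was under 0.05, and bars are 95% intervals of limma, which EPN1 (open diamonds) lacks because it was chosen for this change. CLTC stands apart from the other tested members, at -1.45 and -1.40, and CLTB in SKOV3 is at 0.64.

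DNM2, the widely expressed dynamin that cuts the neck of the pit, showed small differences on this scale. It read 8.05, 7.99 and 7.91 on the control arrays of MDA-MB-231 and 7.74, 7.83 and 7.88 with miR-365a-3p. In SKOV3 it read 8.09 and 8.04 on the control arrays and 7.88, 7.84 and 7.93 with miR-365a-3p. The groups did not overlap in either line. DNM2 fell in both lines, with differences of -0.17 in MDA-MB-231 (SE 0.046, adjusted p = 0.0258) and -0.18 in SKOV3 (SE 0.051, adjusted p = 0.046), and on the deposited values the differences were -0.47 (adjusted p = 0.000914) and -0.48 (adjusted p = 0.00234). The call in MDA-MB-231 was lost without its first or second control array (adjusted p = 0.0878 and 0.0685) or its first or second miR-365a-3p array (0.0841 and 0.0559). In SKOV3 it was lost without any 1 of the 5 SKOV3 arrays (adjusted p from 0.0508 to 0.263) and without the second control or second miR-365a-3p array of MDA-MB-231, which share in the estimate of the spread (0.0679 and 0.0721).

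EPS15, an early scaffold that binds AP2 and epsins, read 7.60, 7.52 and 7.54 on the control arrays of MDA-MB-231 and 7.32, 7.37 and 7.35 with miR-365a-3p. In SKOV3 EPS15 read 7.73 and 7.89 on the control arrays and 7.48, 7.81 and 7.73 with miR-365a-3p. The groups were apart in MDA-MB-231 and overlapped in SKOV3. The differences of -0.21 (adjusted p = 0.0904) and -0.13 (adjusted p = 0.459) did not pass, and on the deposited values those of -0.27 (adjusted p = 0.0297) and -0.37 (adjusted p = 0.0172) did. Without the first miR-365a-3p array of SKOV3 the difference in MDA-MB-231 passed (adjusted p = 0.00971).

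EPN2, the other epsin among the members, was dim. It read 7.65, 7.60 and 7.58 on the control arrays of MDA-MB-231 and 7.38, 7.38 and 7.41 with miR-365a-3p. In SKOV3, EPN2 read 7.46 and 7.47 on the control arrays and 7.40, 7.42 and 7.42 with miR-365a-3p. All treated arrays lay inside the floor band and below all controls. EPN2 fell by 0.22 in MDA-MB-231 (SE 0.022, adjusted p = 0.00015), and the difference in SKOV3 was -0.06 (SE 0.024, adjusted p = 0.192), which passed as -0.16 (adjusted p = 0.000622) on the deposited values and as -0.12 (adjusted p = 0.00384) with centred arrays. EPN2 was the 1 member of 9 whose response differed between the lines, by -0.17 (SE 0.032, adjusted p = 0.0348), where 2.54% of all genes passed that test. The floor limits this comparison, since EPN2 started lower in SKOV3. The test was lost without the second control array (adjusted p = 0.0638) or the first or second miR-365a-3p array (0.0775 and 0.088) of MDA-MB-231, and without either SKOV3 control (0.171 and 0.142) or the second or the third SKOV3 miR-365a-3p array (0.0727 and 0.0863).

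An exact permutation of the treatment within lines asked whether each member moved on average over both lines. It has 200 arrangements, is two-sided, and cannot give a p below 0.005. EPN2, CLTC, CLTB, AP2A1 and DNM2 gave this exact permutation p of 0.005 (adjusted p = 0.0328 over all genes), as did 15.3% of all genes. EPS15 gave an exact permutation p of 0.03 (adjusted p = 0.0984), CLTA 0.47, AP2M1 0.555 and AP2S1 0.83. On the deposited values, EPS15 took the place of CLTB among the 5 at 0.005, and CLTB gave an exact permutation p of 0.08 and AP2S1 one of 0.07. EPN2, CLTC, AP2A1 and DNM2 thus reached the smallest possible value on both scales, all with lower values after miR-365a-3p. Counted by overlap alone, 6 of the 9 members other than EPN1 had all treated arrays below all controls in MDA-MB-231, where 17% of all genes did, and CLTB had them above, where 21% did. In SKOV3, 4 of the 9 had them below (18.2% of all genes) and CLTB and AP2S1 above (23.7%). Over both lines, the treated arrays were all below the controls for CLTC, EPN2, AP2A1 and DNM2, as for 10.3% of all genes, and all above them for CLTB, as for 13.3%.

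**Figure D3:**
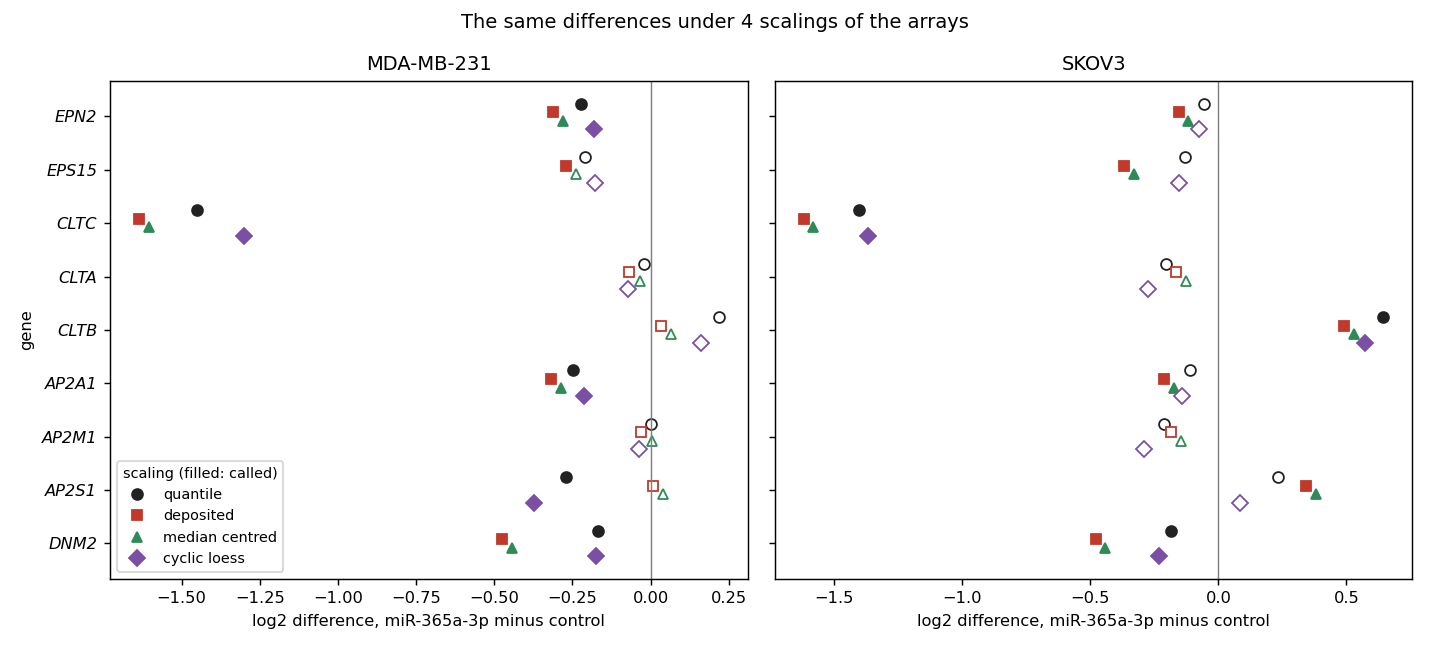
Difference between miR-365a-3p and control (log2, x axis) of the 9 tested clathrin genes in MDA-MB-231 (left) and SKOV3 (right) under 4 ways of scaling the arrays (quantile, as deposited, median centred, cyclic loess within a line), with filled symbols where the adjusted p was under 0.05. CLTC stays well below 0 under each, and AP2S1 in MDA-MB-231 moves from -0.37 to 0.04.

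The control arrays alone gave the baseline in the 2 lines, and this contrast was tested for all 10 members. AP2S1 was higher in MDA-MB-231 than in SKOV3 by 0.77 (SE 0.085, adjusted p = 0.000315), CLTB by 0.54 (SE 0.12, adjusted p = 0.0115) and EPN2 by 0.14 (SE 0.024, adjusted p = 0.00348). These are 3 of 10 members, against 16.1% of all genes that passed in either direction. CLTA (-0.52, adjusted p = 0.0871), AP2M1 (-0.46, adjusted p = 0.144) and EPS15 (-0.25, adjusted p = 0.0971) were lower in MDA-MB-231 on every control array without passing. CLTB did not pass without the second SKOV3 control (0.46, adjusted p = 0.116). CLTA passed without the first or second SKOV3 miR-365a-3p array (adjusted p = 0.0289 and 0.0222), EPS15 without the first (0.00976) and AP2M1 without the second (0.0345), arrays that enter this contrast through the shared spread. EPS15 also passed on the deposited values (-0.40, adjusted p = 0.00985). CLTC, DNM2, AP2A1 and EPN1 did not pass, with DNM2 at -0.09 (adjusted p = 0.402) and AP2A1 at 0.11 (adjusted p = 0.133).

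The other genes of the pathway were read from a list of 59, all of them found on the array. In MDA-MB-231, 19 fell, 3 rose and 37 did not pass, where 11.7% of all genes fell and 14.4% rose. In SKOV3, 15 fell, 2 rose and 42 did not pass, where 7.11% of all genes fell and 7.25% rose. In both lines 13 fell and 1 rose (5.39% and 5.76% of all genes), and the median differences of the 59 were -0.05 and -0.04. With the values as deposited, 33 fell and 2 rose in MDA-MB-231 (17.9% and 7.26% of all genes), and 23 fell and 1 rose in SKOV3 (14.0% and 3.83%). Without the first or second SKOV3 control array, 9 and 7 of the 59 fell in SKOV3, so these counts rest in part on single arrays of the pair.

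The beta subunit of AP2, AP2B1, which binds clathrin, fell in both lines, with differences of -0.79 in MDA-MB-231 (adjusted p = 2.45e-05) and -0.43 in SKOV3 (adjusted p = 0.00178). Its response did not pass as different between lines (adjusted p = 0.0581). The floor limits this comparison, since the treated means of AP2B1, 7.50 and 7.48, sat just above the band, from control means of 8.29 and 7.91. The other alpha subunit, AP2A2, fell in SKOV3 by 0.21 (adjusted p = 0.0243), and in MDA-MB-231 its difference was -0.03 (adjusted p = 0.791), which passed as -0.20 on the deposited values (adjusted p = 0.0101) and as -0.17 with centred arrays (adjusted p = 0.0212). The 5 AP2 subunit genes thus held AP2B1, which fell in both lines, and AP2M1, which passed in neither. CCDC32, deposited under the older symbol C15orf57 and known as a factor in AP2 assembly, was the 1 gene of the list that rose in both lines, by 1.20 (adjusted p = 0.000404) and 0.99 (adjusted p = 0.00375).

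Of 9 enzymes that make or break phosphoinositides at the pit, 7 fell in MDA-MB-231 and 6 in SKOV3, where 11.7% and 7.11% of all genes fell, and none rose. On the deposited values 8 and 7 fell, where 17.9% and 14.0% of all genes did. PIP5K1C, a kinase that makes phosphatidylinositol 4,5-bisphosphate, fell in both lines, with differences of -0.42 (adjusted p = 0.000139) and -0.60 (adjusted p = 8.74e-05). Its treated means, 7.26 and 7.29, lay within the floor band, so the sizes are poorly measured. The lipid phosphatase INPPL1 also fell in both, at -1.40 (adjusted p = 0.000134) and -1.28 (adjusted p = 0.000776). SYNJ2, a synaptojanin, fell with differences of -1.23 (adjusted p = 1.43e-06) and -0.58 (adjusted p = 0.000142), and its response differed between lines by -0.65 (adjusted p = 0.00162). The floor limits this comparison, since the treated means of SYNJ2, 7.46 and 7.54, sat just above the band. Its control mean was higher in MDA-MB-231, at 8.69 against 8.12 in SKOV3. SYNJ1, PIK3C2A and OCRL fell in both lines by smaller amounts, from -0.12 for SYNJ1 in SKOV3 to -0.52 for OCRL in MDA-MB-231. The treated means of SYNJ1, 7.33 and 7.34, also lay within the floor band. Without 1 or the other of the SKOV3 controls, the SKOV3 calls of SYNJ1, PIK3C2A and OCRL, and of HIP1, EPS15L1 and DNM1 among the genes that follow, did not pass (adjusted p from 0.0742 to 0.24).

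Of 4 receptors that travel by this route, 3 fell in MDA-MB-231 and 2 in SKOV3, against the same shares, and the counts were equal on the deposited values. IGF2R, the cation-independent mannose 6-phosphate receptor, fell in both lines, at -2.79 (adjusted p = 4.76e-05) and -3.18 (adjusted p = 8.86e-05). Its treated mean was 7.44 in MDA-MB-231, at the edge of the floor band, and 8.20 in SKOV3, so the size in MDA-MB-231 is poorly measured. TFRC, the transferrin receptor, fell by 1.65 in MDA-MB-231 (SE 0.45, adjusted p = 0.0259), and in SKOV3 its difference was -0.78 (SE 0.51, adjusted p = 0.445). The response of TFRC did not pass as different between lines (adjusted p = 0.703).

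In both lines, 1 of 6 epsin relatives (HIP1) and 2 of 8 early scaffolds (EPS15L1 and FCHO1) fell, where 5.39% of all genes did. So did 1 of 13 dynamins and BAR domain proteins, the neuronal dynamin DNM1, while another of the 13 rose in MDA-MB-231 (14.4% of all genes). On the deposited values, 5, 4 and 3 genes of these roles fell in MDA-MB-231 (17.9%) and 2, 3 and 4 in SKOV3 (14.0%). The falls of HIP1, EPS15L1, FCHO1 and DNM1 were small, from -0.10 for DNM1 in SKOV3 to -0.28 for EPS15L1 in MDA-MB-231. Their treated means lay within the floor band in both lines, so the sizes are poorly measured. For DNM1 the control means, 7.41 in MDA-MB-231 and 7.37 in SKOV3, lay within the band as well. EPN3, another epsin, was within the floor band and its differences were -0.04 (adjusted p = 0.516) and 0.04 (adjusted p = 0.685). For cargo adaptors, 2 of 8 fell and 1 rose in MDA-MB-231 (11.7% and 14.4% of all genes) and 1 fell in SKOV3 (7.11%), and on the deposited values 3 fell and 1 rose in MDA-MB-231 (17.9% and 7.26%) and 2 fell in SKOV3 (14.0%). The riser on the quantile scale was ARRB1, a beta-arrestin, at 0.15 (adjusted p = 0.018), or -0.03 on the deposited values (adjusted p = 0.629). For uncoating factors none of 3 passed in either line, and on the deposited values GAK, a kinase that aids uncoating, fell in both, with differences of -0.33 (adjusted p = 0.0107) and -0.36 (adjusted p = 0.0169). DAB2, a cargo adaptor, fell by 0.70 in MDA-MB-231 (adjusted p = 0.000192), and in SKOV3, where its controls were at 7.48 ± 0.0072 (SD, n = 2), its difference was -0.07 (adjusted p = 0.753).

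**Figure D4:**
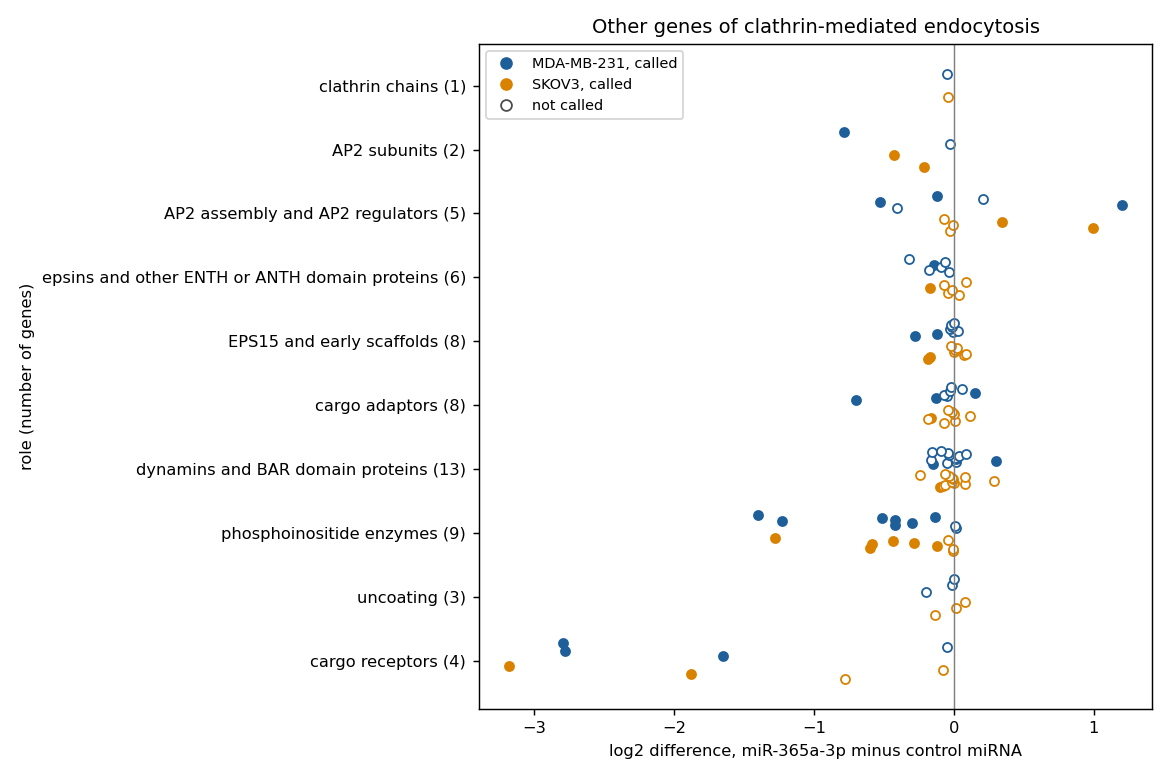
Difference between miR-365a-3p and control (log2, x axis) for the 59 other genes of the pathway, grouped by role on the y axis with the number of genes. Each gene is a blue point for MDA-MB-231 and an orange point for SKOV3, filled where the adjusted p was under 0.05. Most genes lie near 0, the cargo receptors and phosphoinositide enzymes hold the points furthest below it, and CCDC32 lies furthest above it at 1.20 and 0.99.

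Coats of other routes were counted for comparison. Of 29 genes of the adaptors AP1 and AP3, of the COPI coat and of caveolae, 13 fell and 7 rose in MDA-MB-231 (11.7% and 14.4% of all genes), and 4 fell and 3 rose in SKOV3 (7.11% and 7.25%). On the deposited values 14 fell and 3 rose in MDA-MB-231 (17.9% and 7.26%), and 7 fell and 2 rose in SKOV3 (14.0% and 3.83%). Falls were thus present in the other coats too, and the difference between these genes and the clathrin genes was not tested.

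The genes whose levels over the 11 arrays were most like those of EPN1, among 5203 genes with a range of at least 1, were CS (Pearson r = 0.996), PIK3R2 (0.995), ADAR (0.995), UBE4A (0.994) and FNBP1 (0.993). Their roles are diverse, citrate synthase for CS, a regulatory subunit of phosphatidylinositol 3-kinase for PIK3R2, an RNA-editing enzyme for ADAR, a ubiquitin ligase for UBE4A and a membrane-bending F-BAR protein for FNBP1. Of these, PIK3R2 had differences nearest to EPN1 in size, at -3.07 and -3.01. CLTC stood at rank 61 (r = 0.98). The arrays form 2 clusters by treatment for such genes, so these values describe a shared split between treated and control arrays and carry no p.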

How the data were processed

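RNA of 11 arrays was labelled as biotinylated cRNA. Per the paper's methods, the authors used lumi for quantile normalization (version not given in the sources used here). The deposited values, 1 per gene symbol and array, were read here as log2. The sources do not say whether log2 or a variance-stabilizing transformation was used, how probes were combined, or how background was treated, and detection values were not used here. Arrays give no read depth, so their number limits precision.

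The deposited columns did not share a distribution and were quantile normalized with limma 3.58.1 in R 4.3.3. Samples were grouped by the labels' cell line and treatment. A model with 4 group means was fitted to all 31325 genes (lmFit, eBayes), with Benjamini-Hochberg adjustment and a threshold of 0.05. On simulated data with 200 genes raised by 1, it recovered 96.5% in MDA-MB-231 and 95% in SKOV3, calling 15 and 7 unchanged genes. The simulation used independent noise and imposed no floor. Its change was larger than that of any tested member but CLTC, so these rates do not give the power for the members. Single members were tested by exact permutation.

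The members and lists were chosen with earlier results of these data known. The text names the 10 members, pathway genes called in both lines in the same direction, and the 5 genes most like EPN1. AP2A2, TFRC, EPN3, DAB2, ARRB1 and GAK were added after their values were seen. All 10 members matched a RefSeq symbol, and CCDC32 was found by an older symbol. Of the pathway list, 1 gene is in the counts and is not reported here by name.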

Additional observations from a re-analysis of the deposited data

Results flagged for a closer look

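The response of EPN2 differed between the lines by -0.17 (MDA-MB-231 minus SKOV3, adjusted p = 0.0348, limma), with differences of -0.22 and -0.06. That of DAB2 differed by -0.63 (adjusted p = 0.0192), from -0.70 and -0.07. The test of DAB2 was lost without the second MDA-MB-231 miR-365a-3p array (adjusted p = 0.0568) or either SKOV3 control array (0.0935 and 0.103). That of SYNJ2 differed by -0.65 (adjusted p = 0.00162), from -1.23 and -0.58. The floor limits the comparison for SYNJ2 (treated means 7.46 and 7.54) and for DAB2 (SKOV3 control mean 7.48). AP2S1 stood apart because all treated arrays were below the controls in MDA-MB-231 and above them in SKOV3, and the difference of -0.50 did not pass (adjusted p = 0.066, or 0.0444 among brighter genes and 0.02 without the first SKOV3 miR-365a-3p array). For AP2S1 the direction in MDA-MB-231 depended on the scaling. The test of EPN2 lost its call among brighter genes (adjusted p = 0.106). Groups of 2 and 3 arrays were not tested for single outlying arrays.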

How the results depend on the processing

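Alternatives were the deposited values, centring on the median, cyclic loess within lines (not for contrasts between lines), brighter genes only, a replicate block, each line alone (not for contrasts between lines), an intensity trend with robust hyperparameters and each array left out. Permutation on the deposited values was chosen after seeing the data. Single genes counted were the 10 members, the pathway genes called in both lines in the same direction, and DAB2. AP2A2, TFRC, EPN3, ARRB1 and GAK were not in this set. Treatment values of EPN1 had no test and counted as kept when within 0.50 of the main value. Over this set, 1119 alternative values kept direction and side of the threshold, 71 lost the call, 24 gained it and 22 changed sign. The cause was not tested.

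Shares of all genes were counted only on the quantile and deposited scales, and for none of the other settings. From the first scale to the second, the share that fell grew from 11.7% to 17.9% in MDA-MB-231 and from 7.11% to 14% in SKOV3. The counts in this section are given without a share and say nothing particular to the genes listed. Of the 9 members, 2 fell in SKOV3, and 5 did on the deposited values and with centring and 1 with each line alone or the trend. For the count that fell in both lines, 2 became 5 on the deposited values, 4 with centring and 1 with each line alone or the trend. The 1 that rose in SKOV3 became 2 on the deposited values and with centring and 0 with each line alone. The 1 called for the difference between lines became 0 with the trend. Of the 59 other genes, the 19 that fell in MDA-MB-231 became 33 on the deposited values and 31 with centring. The 15 that fell in SKOV3 became 23 on the deposited values and 6 with each line alone, the 2 that rose there became 1 on the deposited values and with centring, loess or the trend and 0 with each line alone, and the 13 that fell in both became 20 on the deposited values and 6 with each line alone.

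With the replicate number as a block, 1 member fell in SKOV3, 1 fell in both lines and 0 were called for the difference, and 1 other gene rose in SKOV3. The block moved DNM2 to adjusted p = 0.12 in MDA-MB-231 and 0.168 in SKOV3, AP2S1 to 0.119 and EPS15 to 0.0384 in MDA-MB-231. Same-numbered arrays showed no clear shared deviation (correlations -0.12, 0.04 and 0.20 in MDA-MB-231, 0.04 and -0.06 in SKOV3). Arrays with different numbers ran from -0.43 to 0.31 in MDA-MB-231. In groups this small the deviations of the arrays depend on each other, and those of the SKOV3 control arrays are mirror images. These correlations therefore cannot decide whether the numbers pair the arrays. No block was fitted for the contrast of the control lines.

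Leaving out 1 array gave 3 to 6 members that fell and 0 to 0 that rose in MDA-MB-231, 1 to 2 that fell and 0 to 2 that rose in SKOV3, 1 to 2 that fell in both, 0 to 2 called for the difference and 2 to 5 for the control lines. Of the other genes, 16 to 22 fell and 2 to 4 rose in MDA-MB-231, 7 to 15 fell and 1 to 2 rose in SKOV3, and 7 to 13 fell in both. The 3 in MDA-MB-231 came without its second control or its first or second miR-365a-3p array, the 0 that rose in SKOV3 without its second control, and the 7 and 8 in both without the second and first SKOV3 control.

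The difference between lines of EPN1, which had no test, was -0.19 and ran from -0.44 to 0.06 without 1 array. This change of sign was counted above as kept. The other values that changed sign were uncalled, apart from AP2S1 in MDA-MB-231 (0.0084 on the deposited values, 0.041 with centring). They were AP2M1 in MDA-MB-231 (-0.029 on the deposited values, -0.037 with loess, -0.078 to 0.13 without 1 array), CLTA in MDA-MB-231 (-0.10 to 0.069 without 1 array), the difference between lines for EPS15 (0.097 on the deposited values, 0.092 with centring, -0.17 to 0.0042 without 1 array), DNM2 (-0.0012 with centring, -0.018 to 0.056 without 1 array) and CLTC (-0.14 to 0.035 without 1 array), and CLTC between the control lines (-0.11 to 0.058 without 1 array).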
